A study of Mus musculus with 34 samples.

Results

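The transcripts of 10 heat shock chaperones of the cytosol and mitochondria were followed in mouse cumulus cells (CCs), the somatic cells that surround the oocyte and support it until ovulation. The genes were chosen by function and matched by symbol in a table of RNA sequencing (RNA-seq) read counts, where all 10 were found among 25965 entries. They were the HSP70 genes Hspa1a, Hspa1b and Hspa8, the HSP110 gene Hsph1, the HSP40 gene Dnajb1, the HSP90 genes Hsp90aa1 and Hsp90ab1, the small heat shock protein gene Hspb1, and the mitochondrial chaperonin genes Hspd1 and Hspe1. The question was how their levels differed with injected leptin, with the time on a high-fat diet, and with the weight response to that diet.

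CCs came from superovulated female C57BL/6J mice, aged 8 weeks when the protocols began. Each library was made from about 50 cells, taken from 1 cumulus-oocyte complex by the labels and from 1 animal by the study's methods. For 16 days, 3 mice of the leptin experiment were injected with saline (16 C) and 5 with leptin at a daily dose of 100 μg (16 L). In the diet experiment, mice were fed chow diet (CD) with 11% of its energy as fat or high-fat diet (HFD) with 58% by the labels (the study's methods give slightly different contents), for 4 weeks (4-week CD, n = 5; 4-week HFD, n = 5) or 16 weeks (16-week CD, n = 6; 16-week HFD, n = 7). The last group, n = 3, is labelled as low weight gainers and had HFD for 16 weeks. A library held between 1104611 and 13207018 counts. Levels are given below as CPM, the counts scaled to a common library total with the TMM factors of all 34 libraries, and groups as mean ± SD.

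Chaperones bind unfolded or partly folded proteins and keep them from clumping. HSP70 proteins hold short exposed stretches in a cycle that HSP40 proteins start and HSP110 proteins reset, and HSP90 proteins finish the folding of signalling clients such as steroid receptors and kinases. The chaperonin HSP60, made from Hspd1, and its lid HSP10, made from Hspe1, fold proteins inside the mitochondrial matrix. When a cell is stressed, heat shock factor 1 (HSF1) binds heat shock elements in front of many of these genes, which are inverted repeats of a short unit. Hspa1a, Hspa1b, Hspb1, Dnajb1, Hsph1 and Hsp90aa1 are known as stress-inducible, whereas Hspa8 and Hsp90ab1 are made in most cells at all times.

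The sequence in front of the inducible genes is shown first because the HSP70 pair is nearly identical there and because it holds letters that match the heat shock element. Sequences are from RefSeq, build GRCm38.p6, written 5′ to 3′ on the strand of the gene, and capitals mark matches to GAANNTTC or TTCNNGAA, each of which covers both strands. For Hspa1a, Hspa1b and Hspb1 the 250 bases before the start site are given.
Hspa1a: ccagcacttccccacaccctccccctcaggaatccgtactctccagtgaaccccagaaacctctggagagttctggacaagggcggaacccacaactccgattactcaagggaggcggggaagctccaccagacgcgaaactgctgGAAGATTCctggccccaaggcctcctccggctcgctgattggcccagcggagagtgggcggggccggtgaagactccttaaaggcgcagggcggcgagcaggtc
Hspa1b: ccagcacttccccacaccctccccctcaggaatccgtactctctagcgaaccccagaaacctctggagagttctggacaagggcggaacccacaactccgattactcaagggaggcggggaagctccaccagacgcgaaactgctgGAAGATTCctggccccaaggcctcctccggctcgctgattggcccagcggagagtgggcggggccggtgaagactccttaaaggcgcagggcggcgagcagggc
Hspb1: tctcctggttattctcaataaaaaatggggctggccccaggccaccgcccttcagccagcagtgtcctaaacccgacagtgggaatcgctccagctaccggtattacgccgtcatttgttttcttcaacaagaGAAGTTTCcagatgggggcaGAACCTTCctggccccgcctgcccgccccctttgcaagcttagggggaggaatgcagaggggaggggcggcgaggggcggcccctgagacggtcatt
These stretches lie at chr17:34972157-34972406 on the minus strand, chr17:34959239-34959488 on the minus strand and chr5:135887669-135887918 on the plus strand, and none overlapped an annotated exon. The Hspa1a and Hspa1b stretches had 247 of 250 bases in common (98.8%), and in both the only match began 104 bases upstream of the start. The Hspb1 stretch held 2 matches, the first of them 117 bases upstream. For Hspe1 and Hsph1, 30 bases around the longest run of touching matches are given.
Hspe1: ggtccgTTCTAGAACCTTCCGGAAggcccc
Hsph1: agtaaaatgctgcagaTTCTGGAAAGTTCt
The Hspe1 site, chr1:55088053-55088082 on the plus strand, lies upstream of Hspe1 and inside Hspd1, within an untranslated exon of one Hspd1 transcript. The 2 chaperonin genes are read in opposite directions. Its run of 18 bases began 89 bases upstream of the Hspe1 start. The Hsph1 site, chr5:149636287-149636316 on the minus strand, is in the untranslated first exon of annotated transcripts.

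Of the members, 7 had a promoter entry (250 bases before to 50 bases after a start), some of them for more than 1 start. Of these members, 6 held a match of 2 units in at least 1 entry. Dnajb1 was the exception, with no match at either of its 2 starts, and the first of 2 Hspd1 entries also had none. Over all 32851 mouse promoter entries the share with such a match was 15.1%. Members are counted here by gene and shares by entry, so the 2 are not alike. A run of 3 alternating units, GAANNTTCNNGAA or TTCNNGAANNTTC, was found for Hsph1, Hspd1 and Hspe1, against 0.603% of all entries, and the Hspd1 and Hspe1 windows overlap. A match describes the letters in the window and was not tested as a binding site. Hsp90aa1, Hsp90ab1 and Hspa8 had no entry.

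The constitutive HSP90 gene dominated the chaperone reads in every group. Hsp90ab1 had a median of 1948 CPM over the 34 libraries and took 42.1 to 64.6% of the reads on the 10 genes. Hspa8, the housekeeping HSP70, followed at a median of 583 CPM, and Hsp90aa1 at 405 CPM. Together the 10 genes took 0.206 to 0.662% of a library's counts, with a median of 0.359%.

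Per kilobase of exon, which allows levels of different genes to be compared, the median was 649 CPM for Hsp90ab1, 136 for Hspa8, 103 for Hsp90aa1, 98.6 for Hspe1 and 87.2 for Hspd1. Dnajb1 reached 15.0 and Hsph1 8.45 CPM per kilobase, and Hspb1 2.64. On this scale the 2 chaperonin genes lay close to each other and to Hsp90aa1. The inducible HSP70 genes were nearly silent, with 134 reads each in all libraries together.

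The spread within groups differed between members. On the log2(CPM + 1) scale the SD within groups was lowest for Hsp90ab1, at 0.34, and highest for Hspb1, at 0.74. Hsp90aa1, the inducible partner of Hsp90ab1, had an SD of 0.66 and ranged from 144 to 1336 CPM.

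**Figure D1:**
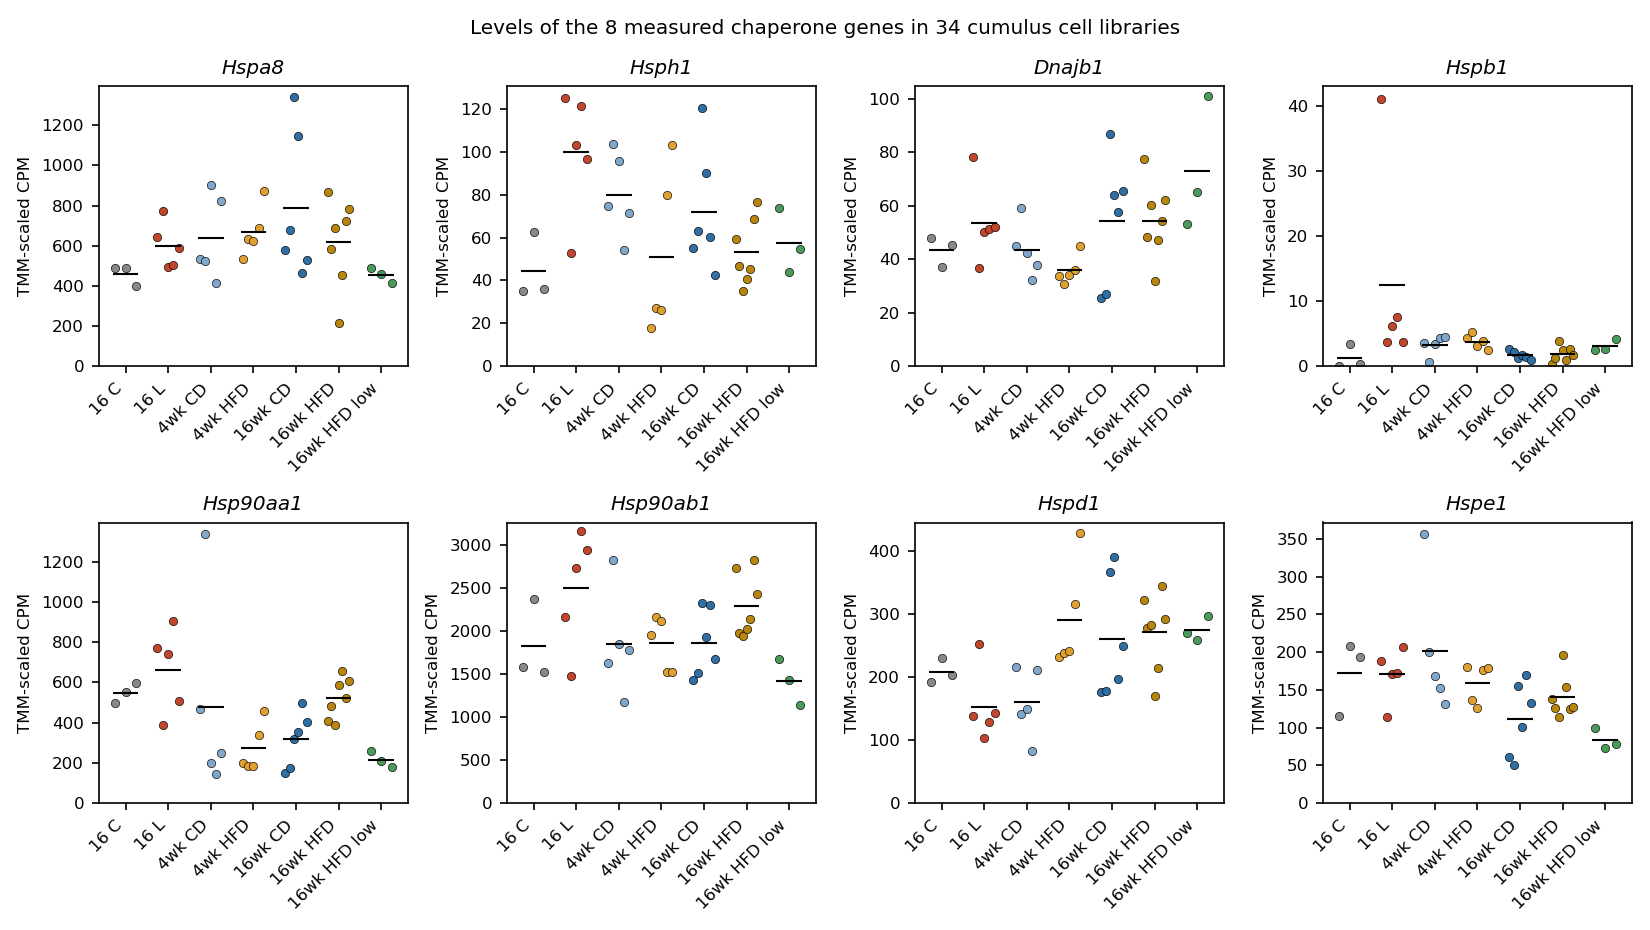
Levels of the 8 chaperone genes with more than 134 reads in all, in TMM-scaled CPM on the vertical axes, by group on the horizontal axes. Each point is a library and each line a group mean. Hsp90aa1, Hsp90ab1 and Hspe1 sit lower in the low weight gainers than in 16-week HFD with no overlap, and 1 library of 16 L stands far above the rest for Hspb1. The share of all genes with groups that do not overlap is not given here.

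Reads that fit more than 1 gene limit some of these levels. Of the 50-base stretches in annotated Hspa1a and Hspa1b transcripts, 66.3% and 62.3% also occur in transcripts of other genes, mostly the other member of the pair. The share was 47.5% for Hsp90aa1, 39.4% for Hspa8, 42.1% for Hspd1 and 50.1% for Hspb1, mostly with pseudogenes not analysed here. It was 22.8% for Hspe1, 3.44% for Hsp90ab1, 0.412% for Dnajb1 and 0% for Hsph1. Hspd1 (chr1:55077835-55088243, minus strand) and Hspe1 (chr1:55088132-55091307, plus strand) also overlap by 112 bases. Hspa1a, with 134 reads in all, is overlapped over 2225 bases by the entry Gm20481, which held 16. Since the use of strand and of reads that fit several genes is not given, reads from these overlaps cannot be told apart.

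Marker genes were read as a check of the cells. The granulosa and cumulus genes Inha and Tnfaip6 were found in every library, with medians of 579 and 471 CPM. Of the same list, Amh was at 0 in 16 libraries and Has2 in 3. Of the oocyte genes, Zp1, a zona pellucida gene, was at 0 in 33 of 34. Gdf9 was at 0 in only 7 libraries and Dppa3 in 9, with medians of 0.870 and 0.374 CPM. One library of 4-week HFD, replicate 5, held all 9 oocyte markers, with a summed level of 328 CPM, against 0.559 to 2.98 CPM in the others of its group. In the leptin experiment the summed level of 9 oviduct epithelium markers was 202 to 229 CPM in 16 C, but 36729 CPM in 16 L replicate 18, 680 to 1915 CPM in replicates 20, 21 and 23, and 134 CPM in replicate 19. The summed level of 6 red blood cell markers was 7.61 to 56.0 CPM in 16 C and 13.7 to 16739 CPM in 16 L. The summed level of 11 cumulus and granulosa markers was 2544 to 3412 CPM in 16 C and 726 to 1513 CPM in 16 L, so that those groups did not overlap. The most abundant genes weigh most in such a sum. Singly, 9 of these markers were tested and 0 called, and 3 had a log2 fold change above 0. Their median was -0.07, against 0.27 for all genes. Of the markers, Ltf of the oviduct list was called higher (6.89 ± 1.83, edgeR adjusted p = 0.0477) and Star of the theca and stroma list lower (-1.58 ± 0.38, edgeR adjusted p = 0.0394) in 16 L. The 8 theca and stroma markers summed to 182 to 263 CPM in 16 C, 1772 CPM in 16 L replicate 18 and 71.7 to 144 CPM in the other leptin libraries. Star is also expressed by luteinizing granulosa cells, and Krt8 and Krt18 of the oviduct list by other epithelia. Over the 34 libraries Star had a median of 295 CPM, and Pdgfra, the next of its list, 1.21 CPM. Krt8 and Krt18 had medians of 97.6 and 87.0 CPM. These sums therefore do not by themselves show theca or oviduct cells. In bulk samples, fewer cells of a type and less RNA per cell cannot be told apart.

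Few of the chaperones passed the test in any comparison. Each was fitted over all genes with edgeR's quasi-likelihood test and called at a Benjamini-Hochberg adjusted p of 0.05. In 16 L against 16 C, 0 of the 8 members that passed the filter on low counts were called, while 8.56% of all genes tested were. In 4-week HFD against 4-week CD 0 of 8 were called, with 4.26% of all genes called. In 16-week HFD against 16-week CD 0 of 7 were called, with 0.0276% of all genes.

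The low weight gainers gave the only calls. Against 16-week HFD, 3 of 7 members tested were lower, and 20.7% of all genes were called. Against 16-week CD, 0 of 8 members and 0.00861% of all genes were called. The diet by time interaction, which asks whether the HFD difference at 16 weeks differs from that at 4 weeks, called 0 of 8 members and 3.66% of all genes. The comparisons at 16 weeks share libraries with each other and with the interaction. In the low weight gainers against 16-week HFD, 3 of 7 members and 36.3% of all genes had an unadjusted p under 0.05. Where groups of libraries are said not to overlap, the share of all genes with such groups is not given, so that separation is a description only.

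With an unadjusted p under 0.05 there were 2 members for leptin, 1 for HFD at 4 weeks, 1 for HFD at 16 weeks, 0 for the low weight gainers against 16-week CD and 1 for the interaction. Over all genes the shares with such a p were 32.4%, 24.3%, 25.3%, 11.2% and 23.4%. In the same order, DESeq2 called 2, 1, 0, 0 and 0 members and limma-voom with quality weights 4, 2, 0, 0 and 2, while DESeq2 called 23.7%, 11.2%, 9.72%, 2.33% and 9.52% of all genes and limma-voom 64.4%, 34.5%, 0.0460%, 1.69% and 19.2%. The median log2 fold change of the members tested was 0.35 in 16 L, where that of all genes was 0.27. It was -0.15 in 4-week HFD, 0.08 in 16-week HFD, -0.47 in the low weight gainers against 16-week HFD, -0.37 against 16-week CD, and 0.32 in the interaction. The medians of all genes in these comparisons were -0.01, -0.05, -0.03, -0.08 and -0.09.

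**Figure D2:**
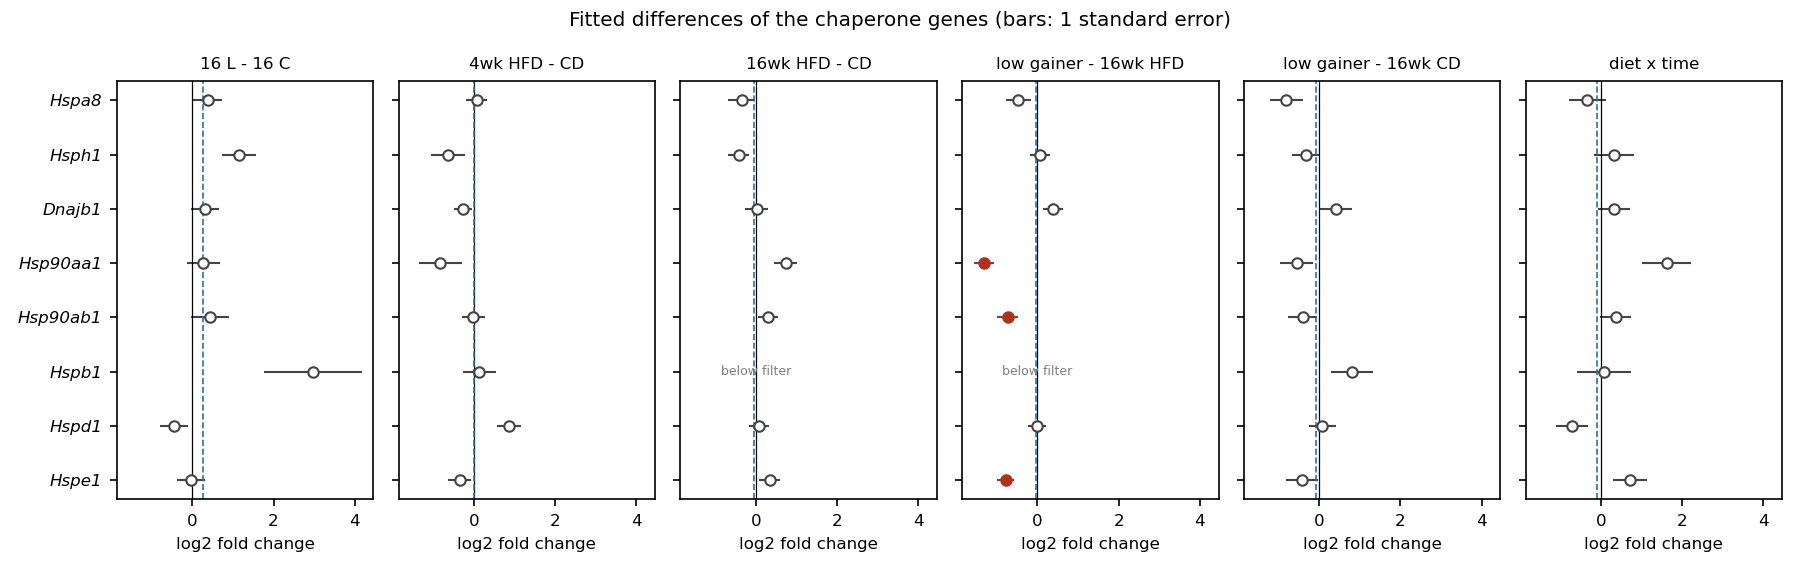
Fitted log2 fold changes of the 8 chaperone genes, by comparison on a shared horizontal axis; bars are 1 standard error, filled red points have an edgeR adjusted p under 0.05, solid lines mark 0 and dashed lines the median of all genes. The 3 filled points, Hsp90aa1 at -1.32, Hsp90ab1 at -0.73 and Hspe1 at -0.79, are all in the low weight gainers against 16-week HFD, and Hspb1 was below the filter in the 16-week HFD comparisons.

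The inducible HSP70 genes Hspa1a and Hspa1b, whose products appear in large amounts after heat or oxidative stress, were read only a few times per library. Hspa1a had 0, 8 and 1 reads in 16 C and 14, 19, 6, 7 and 5 reads in 16 L. As levels these were 0, 0.951 and 0.388 CPM in 16 C and 2.40, 1.91, 2.63, 4.85 and 1.70 CPM in 16 L. All 5 leptin libraries lay above all 3 saline libraries, although the counts were small. The difference of the mean log2(CPM + 1) was 1.35, with p = 0.0179 in an exact two-sided permutation test, the smallest that 3 against 5 libraries allow. Without a filter, edgeR gave an adjusted p = 0.276 over all genes. Without 16 L replicate 18, the library richest in oviduct markers, the difference was 1.37 (exact permutation p = 0.0286, again the smallest possible).

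Hspa1b had the same counts as Hspa1a in 16 C, namely 0, 8 and 1 reads. In 16 L it had 12, 9, 11, 3 and 22 reads, or 2.06, 0.904, 4.82, 2.08 and 7.46 CPM. One leptin library, replicate 19, overlapped the saline group. The difference was 1.48 (exact permutation p = 0.0714), and with both genes added, since their reads can be split between them, it was 1.97 (exact permutation p = 0.0179).

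In the 4-week libraries it was the control group that held more Hspa1b. It had 36, 6, 4, 5 and 3 reads in 4-week CD and 2, 0, 4, 1 and 6 reads in 4-week HFD, which gave 2.36 ± 1.87 and 0.323 ± 0.332 CPM. A single CD library, replicate 1, held most of these reads, and the groups overlapped. The difference was -1.19 (exact permutation p = 0.0238), and edgeR without a filter gave an adjusted p = 0.0699. Leaving out HFD replicate 3, 4 or 13 gave an exact permutation p = 0.0556 each, while leaving out HFD replicate 5, with its oocyte markers, or CD replicate 1 gave an exact permutation p = 0.0317 each. Hspa1a was at 0.837 ± 0.575 CPM in 4-week CD and 0.670 ± 0.546 CPM in 4-week HFD (exact permutation p = 0.690).

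After 16 weeks Hspa1b was hardly seen. The 6 libraries of 16-week CD and the 3 of low weight gainers had 0 reads each, and the 7 of 16-week HFD had 1 read between them. A count of 0 allows up to 3 reads at 95% confidence, counting error only, which was 0.410 to 1.47 CPM across the CD libraries. Hspa1a had 9, 4 and 3 reads in these groups. The 16-week groups differ from the others in age and time on the diet, which cannot be told apart here, and their levels were not tested against them. In all, 12 permutation tests were run on members below the filter.

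**Figure D3:**
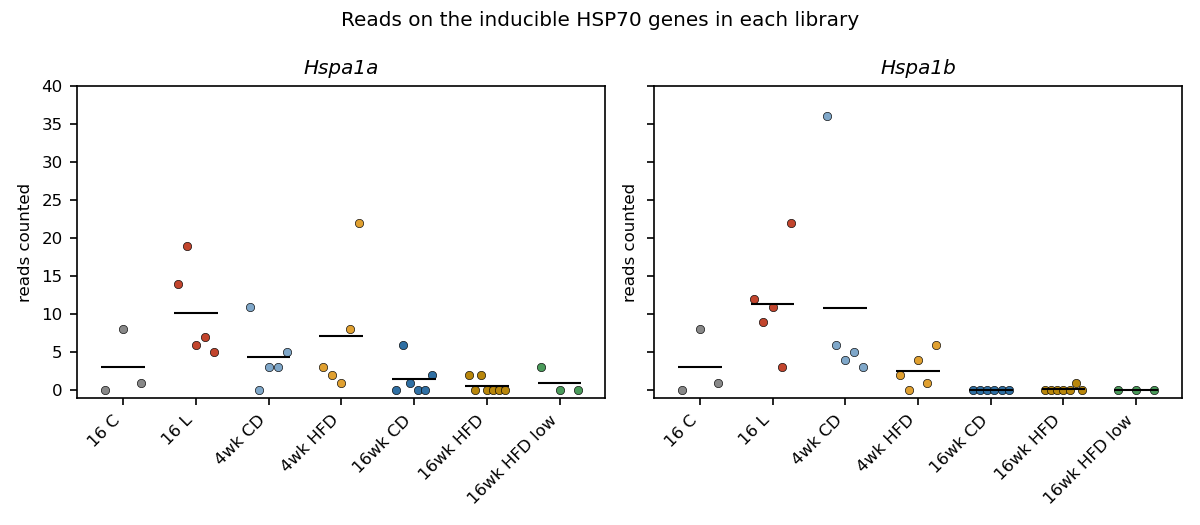
Reads counted on Hspa1a and Hspa1b (vertical axis) in each library, by group on the horizontal axis, with lines at the group means. The 5 libraries of 16 L had 5 to 19 reads on Hspa1a, and Hspa1b had 1 read in all 16-week libraries together.

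Hspa8, which makes the housekeeping HSP70 called HSC70, lay between 217 and 1339 CPM in all libraries. In 16 C it was at 490, 488 and 402 CPM and in 16 L at 644, 771, 495, 506 and 589 CPM. All leptin libraries were above the saline ones, but only narrowly. This was a log2 fold change of 0.38 ± 0.36 (SE), close to the median of all genes, with an edgeR adjusted p = 0.479. In the diet groups the mean was 639 ± 210 CPM in 4-week CD and 670 ± 126 CPM in 4-week HFD. At 16 weeks CD ranged from 463 to 1339 CPM with a median of 630, and HFD from 217 to 869 CPM with a median of 690. Between the diets at 16 weeks the log2 fold change was -0.35 ± 0.33, with an edgeR adjusted p = 0.505. The low weight gainers, at 489, 461 and 417 CPM, had the lowest mean of the 7 groups but overlapped 16-week HFD, with a log2 fold change of -0.47 ± 0.31 and an edgeR adjusted p = 0.293. Against 16-week CD it was -0.81 ± 0.42 (edgeR adjusted p = 0.505).

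Hsph1 makes HSP110, which exchanges the nucleotide of HSP70 and slows clumping. It was at 35.01, 62.4 and 36.1 CPM in 16 C and at 125, 52.8, 103, 121 and 96.4 CPM in 16 L. Of the 5 leptin libraries 4 lay above all saline libraries, and replicate 19 lay among them. In 16 L Hsph1 had a log2 fold change of 1.15 ± 0.41, or 0.88 above the median of all genes, and the edgeR adjusted p = 0.0948 missed the threshold. It was passed with DESeq2 (adjusted p = 0.0485), limma-voom (adjusted p = 3.32e-05), total count scaling (edgeR adjusted p = 0.0128) and the fit of all 34 libraries (edgeR adjusted p = 0.0412), settings that called 23.7 to 64.4% of all genes. Without 16 L replicate 19, which also had the fewest oviduct reads, it was 1.32 with an edgeR adjusted p = 0.0414. Without replicate 18, which had the most, it was 0.95 with an edgeR adjusted p = 0.0641. The fits without replicates 19 and 18 called 14.4% and 41.8% of all genes. The part of the other cell types in this difference was not tested.

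In the 4-week libraries Hsph1 split the HFD group. It was at 74.6, 104, 95.6, 54.1 and 71.3 CPM in CD and at 17.996, 27.0, 26.1, 79.6 and 103 CPM in HFD. Replicates 3, 4 and 5 of HFD were below every CD library, while replicates 13 and 14, which had the most counts of the group (9255287 and 12641896), were within the CD range. Over all 10 libraries the log2 fold change was -0.64 ± 0.42 (edgeR adjusted p = 0.355), while limma-voom, which weights libraries by quality, gave -1.72 (adjusted p = 0.000494). The same pair of HFD libraries had the highest levels of Hsp90aa1, Hspd1, Hspa8, Hspa1a and Dnajb1 in that group and the lowest of Hsp90ab1, and the part of depth in this was not tested. At 16 weeks Hsph1 ranged from 42.6 to 120 CPM in CD (median 61.7) and from 35.02 to 76.7 CPM in HFD (median 46.5), with a log2 fold change of -0.42 ± 0.25 and an edgeR adjusted p = 0.278. The low weight gainers were at 73.9, 43.8 and 54.7 CPM, within the HFD range.

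Dnajb1 makes the HSP40 protein that hands clients to HSP70 and starts its cycle. It was at 48.0, 37.0 and 45.4 CPM in 16 C and at 78.1, 36.8, 50.4, 51.2 and 51.9 CPM in 16 L. Replicate 18 of 16 L was the highest, and replicate 19 lay just under the saline range. Its log2 fold change of 0.31 ± 0.34 was within 1 SE of 0. After 4 weeks it was 43.4 ± 10.1 CPM in CD and 36.0 ± 5.39 CPM in HFD, with a log2 fold change of -0.27 ± 0.22 (edgeR adjusted p = 0.461). After 16 weeks the means were nearly equal, 54.5 ± 23.8 CPM in CD and 54.5 ± 14.3 CPM in HFD. The low weight gainers had the highest mean of the 7 groups, with 53.2, 65.3 and 101 CPM, and a log2 fold change against 16-week HFD of 0.39 ± 0.24 (edgeR adjusted p = 0.269). Against 16-week CD it was 0.42 ± 0.39 (edgeR adjusted p = 0.721).

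Both HSP90 genes were lower in the low weight gainers than in 16-week HFD. Hsp90aa1, the inducible form, was at 260, 210 and 178 CPM in the low weight gainers and ranged from 390 to 656 CPM in 16-week HFD, with a median of 524. All 3 low weight gainers lay below all 7 libraries of the HFD group. Hsp90aa1 was lower by a log2 fold change of -1.32 ± 0.25, with an edgeR adjusted p = 0.00266. Of the 18 alternatives, 17 kept the call. The fit of all 34 libraries, which called 3.68% of all genes, lost it (edgeR adjusted p = 0.134). The chow-fed mice, which ranged from 149 to 497 CPM with a median of 337, overlapped both groups. Against them the low weight gainers had a log2 fold change of -0.56 ± 0.40 (edgeR adjusted p = 0.629).

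Of the 7 members tested, Hsp90aa1 also had the largest diet difference at 16 weeks. The HFD mean was 523 ± 101 CPM and the CD mean 316 ± 134 CPM, a log2 fold change of 0.74 ± 0.28. The edgeR adjusted p = 0.120 missed the threshold, while without 16-week CD replicate 9, the highest of the CD group, it was 0.91 with an edgeR adjusted p = 0.0286, in a fit that called 20.5% of all genes. At 4 weeks Hsp90aa1 was at 468, 1336, 199, 144 and 247 CPM in CD and at 199, 183, 183, 340 and 458 CPM in HFD. One CD library, replicate 2, stood far above the others. With it the log2 fold change was -0.83 ± 0.52 (edgeR adjusted p = 0.340), and without it 0.055 (edgeR adjusted p = 0.945). The interaction of diet and time was 1.62 ± 0.61 for Hsp90aa1, with an edgeR adjusted p = 0.107, and 1.83 (edgeR adjusted p = 0.0419) without 16-week CD replicate 9, where 13.8% of all genes were called. Over 31 alternatives the interaction ranged from 0.73 to 1.86, and 1 of them passed the threshold. The 4-week difference that enters it depends on CD replicate 2, as given above.

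In the leptin experiment Hsp90aa1 was at 495, 554 and 599 CPM in 16 C and at 771, 386, 740, 904 and 508 CPM in 16 L. The leptin libraries spread to both sides of the saline ones. A log2 fold change of 0.27 ± 0.41 was at the median of all genes.

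Hsp90ab1, the constitutive form, differed in the same direction in the low weight gainers. It was at 1677, 1431 and 1144 CPM there and ranged from 1944 to 2830 CPM in 16-week HFD, with a median of 2137. Again no library of one group reached the other. It was lower by a log2 fold change of -0.73 ± 0.25, with an edgeR adjusted p = 0.0479 just under the threshold. It kept its sign in all 18 alternatives, from -0.86 to -0.58, but the call in only 6 of them. It was lost without 16-week HFD replicate 11, 14, 15 or 16 or any 1 of the low weight gainers, with edgeR adjusted p-values of 0.0502 to 0.231. RLE and total count scaling, each of the other filters and the fit of all 34 libraries also lost it. In 16-week CD it ranged from 1427 to 2328 CPM (median 1804), and the log2 fold change of HFD against CD was 0.31 ± 0.25 (edgeR adjusted p = 0.434), or -0.0035 when scaled by total counts. The low weight gainers against CD were at -0.41 ± 0.36 (edgeR adjusted p = 0.697).

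In the leptin experiment Hsp90ab1 was at 1577, 2376 and 1525 CPM in 16 C and at 2162, 1477, 2735, 3161 and 2937 CPM in 16 L, where 3 leptin libraries were above the saline range and 1 was below it. Its log2 fold change there, 0.44 ± 0.47, was within 1 SE of 0. At 4 weeks the means were 1852 ± 607 CPM in CD and 1856 ± 314 CPM in HFD.

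Hspb1, which makes the small heat shock protein HSP25 that holds unfolded proteins without using ATP, was low in all CCs. It had 0, 29 and 1 reads in 16 C, or 0, 3.45 and 0.388 CPM, and 239, 38, 14, 11 and 11 reads in 16 L, or 41.0, 3.82, 6.14, 7.62 and 3.73 CPM. All leptin libraries lay above all saline libraries, and replicate 18, the library with 36729 CPM of oviduct markers, stood far above the rest. Hspb1 had a log2 fold change of 2.97 ± 1.21, or 2.69 above the median of all genes (edgeR adjusted p = 0.127). DESeq2 (adjusted p = 0.0326), limma-voom (adjusted p = 0.00228), total count scaling (edgeR adjusted p = 0.0323) and the fit of all 34 libraries (edgeR adjusted p = 0.00723) called it. Without 16 L replicate 18 it was 1.48 (edgeR adjusted p = 0.192), and without 16 C replicate 2 it was 5.55 (edgeR adjusted p = 0.115). The part of oviduct cells in this difference was not tested.

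In the diet groups Hspb1 stayed between 0.420 and 5.27 CPM. At 4 weeks the means were 3.28 ± 1.57 CPM in CD and 3.83 ± 1.09 CPM in HFD. At 16 weeks it was under the filter, with 45 reads in CD and 37 in HFD, and the difference of the mean log2(CPM + 1) was 0.04 (exact permutation p = 0.878). The low weight gainers had 40 reads and 3.14 ± 0.919 CPM, against 1.94 ± 1.20 CPM in 16-week HFD (difference 0.58, exact permutation p = 0.158). Against 16-week CD, where Hspb1 passed the filter, the log2 fold change was 0.82 ± 0.51 (edgeR adjusted p = 0.577).

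The chaperonin genes Hspd1 and Hspe1, whose products form 1 machine and whose genes start within one short stretch of chromosome 1, were tested separately, and the difference between them was not tested. Hspe1, the lid, was at 98.8, 73.2 and 78.0 CPM in the low weight gainers and ranged from 114 to 196 CPM in 16-week HFD, with a median of 127. The groups did not overlap, and the log2 fold change was -0.79 ± 0.22 with an edgeR adjusted p = 0.0191. Hspd1, the barrel, was at 270, 258 and 297 CPM in the low weight gainers and ranged from 170 to 344 CPM in 16-week HFD, with a median of 283. Its log2 fold change was -0.02 ± 0.22, and the 95% interval ran from -0.45 to 0.41. The call for Hspe1 was kept in 14 of 18 alternatives. It was lost without low weight gainer replicate 22 (edgeR adjusted p = 0.0898) or 23 (edgeR adjusted p = 0.105), with total count scaling (edgeR adjusted p = 0.0614), and in the fit of all 34 libraries (edgeR adjusted p = 0.199). In this order these settings called 12.6%, 5.19%, 19.4% and 3.68% of all genes.

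At 4 weeks Hspd1 was at 215, 141, 149, 82.1 and 211 CPM in CD and at 231, 238, 240, 316 and 428 CPM in HFD. Every HFD library lay above every CD library. Hspd1 had a log2 fold change of 0.86 ± 0.29, and the edgeR adjusted p = 0.0920 missed the threshold, which DESeq2 (adjusted p = 0.0361) and limma-voom (adjusted p = 0.00578) passed. Without HFD replicate 5 it was 0.93 (edgeR adjusted p = 0.122), and without CD replicate 11 it was 0.97 (edgeR adjusted p = 0.0477). These 3 settings, DESeq2, limma-voom and the fit without CD replicate 11, called 11.2%, 34.5% and 14.4% of all genes. Of the cumulus markers Fshr, the receptor for follicle-stimulating hormone, was called higher in the same comparison (1.87 ± 0.42, edgeR adjusted p = 0.0281) and lower in the interaction (-2.67 ± 0.65, edgeR adjusted p = 0.0287). Hspe1 was at 357, 201, 169, 153 and 131 CPM in CD and at 180, 136, 126, 176 and 179 CPM in HFD, a log2 fold change of -0.36 ± 0.28 (edgeR adjusted p = 0.446). Its highest value was that of CD replicate 1, the library that also held the most Hspa1b.

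In the other comparisons edgeR called neither chaperonin gene. Hspd1 was at 191, 229 and 203 CPM in 16 C and at 138, 251, 103, 129 and 142 CPM in 16 L, so that 4 of 5 leptin libraries were below the saline range. This was a log2 fold change of -0.45 ± 0.35 (edgeR adjusted p = 0.398), which scaling by total counts turned to 0.37 and limma-voom called at -0.68 (adjusted p = 0.00361). Less the median over all genes it was -0.72 with TMM factors and -0.71 with total counts. Hspe1 was at 173 ± 49.9 CPM in 16 C and 171 ± 34.9 CPM in 16 L. At 16 weeks Hspd1 had a median of 223 CPM in CD and 283 CPM in HFD, and Hspe1 116 and 127 CPM, with a log2 fold change of 0.34 ± 0.27 for Hspe1 (edgeR adjusted p = 0.408). Against 16-week CD the low weight gainers were at -0.43 ± 0.39 for Hspe1 (edgeR adjusted p = 0.711). Their interaction of diet and time was -0.72 ± 0.39 for Hspd1 (edgeR adjusted p = 0.272, with limma-voom 0.0430) and 0.72 ± 0.42 for Hspe1 (edgeR adjusted p = 0.295).

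The order of the group means differed from gene to gene. 16 L was the highest of the 7 groups for Hspa1a, Hspa1b, Hsph1, Hsp90aa1, Hsp90ab1 and Hspb1, and the low weight gainers were the lowest for Hspa8, Hsp90aa1, Hsp90ab1 and Hspe1. Nearly all neighbours in that order had overlapping ranges. The exceptions were Hspa1a, where 16 L lay above 4-week CD, and Hspa8, where 16 L lay above 16 C.

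Pairs of partners were compared across the 34 libraries after the group means were removed. For Hsp90aa1 and Hsp90ab1 Pearson's r was 0.49 (permutation p = 0.00347, adjusted over 3 pairs 0.0104) and Spearman's rho 0.33 (permutation p = 0.0575, adjusted 0.0862). When the 2 libraries with the most extreme Hsp90aa1, 4-week CD replicates 2 and 8, were removed, r was 0.23. Within the experiments r was 0.59 in the 8 leptin libraries and 0.57 in the 16 of 16 weeks, which hold neither of them, and 0.47 in the 10 of 4 weeks. For Hspa8 and Hsph1 r was 0.45 (permutation p = 0.00729, adjusted 0.0109) and rho 0.49 (permutation p = 0.00351, adjusted 0.0105), and r was 0.42 without its 2 most extreme libraries. Within the experiments r was 0.55 at 4 weeks and 0.68 at 16 weeks, but -0.46 in the leptin libraries, so that the sign did not hold in each. For Hspd1 and Hspe1 r was 0.15 (permutation p = 0.401, adjusted 0.401) and rho 0.11 (permutation p = 0.522, adjusted 0.522). By experiment r was -0.42 in the leptin libraries, 0.42 at 4 weeks and 0.18 at 16 weeks, so the sign differed here too. Points share the scaling of their library, and depth differs between libraries.

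**Figure D4:**
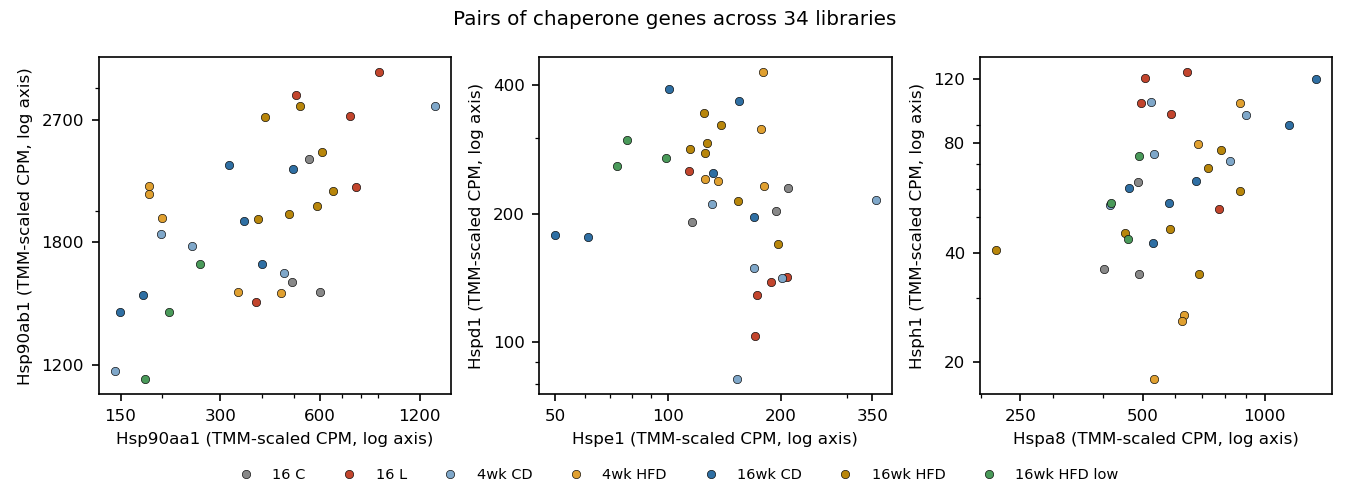
Levels of 3 pairs of chaperone genes in the 34 libraries, in TMM-scaled CPM on log axes, with a point per library coloured by group. With group means removed, r was 0.49 for Hsp90aa1 and Hsp90ab1 (0.23 without 2 libraries), 0.45 for Hspa8 and Hsph1, and 0.15 for Hspd1 and Hspe1.

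The genes most like the members were sought among 6962 genes with at least 10 counts in every library, by Pearson's r over the 34 libraries with group means removed. With the mean standardized level of the 6 inducible members, Hexim1 (0.83), Smarca2 (0.82), Hnrnpc (0.77), 2610015P09Rik (0.76) and Aasdhppt (0.76) came closest. Among these 6 members themselves, r ran from -0.26 (Hspb1 and Hsp90aa1) to 0.49 (Dnajb1 and Hsp90aa1). It was -0.0071 for Hspa1a and Hspa1b, each with at most 3 reads in 23 of the 34 libraries, so the mean does not stand for a common pattern. With that of Hspa8, Hsp90ab1, Hspd1 and Hspe1 the closest were Hnrnpc (0.86), Mki67ip (0.81), Ywhah (0.80), Nif3l1 (0.77) and Drg1 (0.77). These values describe the highest of many candidates and carry no test.

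Of 63 further genes of chaperone pathways, 57 or 58 passed the filter in each comparison. In 16 L against 16 C, 3 were higher and 2 lower, or 8.77% of those tested, close to the 8.56% of all genes. Bag3, a co-chaperone that sends clients to autophagy and is itself a target of HSF1, was at 0, 5.71 and 8.14 CPM in 16 C and at 44.8, 27.1, 125, 99.7 and 94.7 CPM in 16 L. Every leptin library lay far above the saline ones. The 4-week groups reached into the 16 L range, at 27.4 to 109 CPM in CD and 24.6 to 35.5 CPM in HFD. All 16-week libraries were at 0 to 20.5 CPM. Levels of Bag3 were not tested between the experiments. Bag3 was higher by 3.97 ± 0.88 on the log2 scale (edgeR adjusted p = 0.0316). Without 16 L replicate 18 it was higher by 3.97 (edgeR adjusted p = 0.00280), in a fit that called 41.8% of all genes. Leaving out 16 C replicate 1, 2 or 3 or 16 L replicate 20, 21 or 23 in turn gave edgeR adjusted p-values of 0.0683 to 0.123. Those fits called 0.235 to 1.28% of all genes. Dnaja4, an HSP40 gene, and Hspbp1, a nucleotide exchange factor, were higher by 1.97 ± 0.47 (edgeR adjusted p = 0.0376) and 1.67 ± 0.44 (edgeR adjusted p = 0.0459).

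The 2 lower genes were Trap1 and Yme1l1. Trap1, the HSP90 of mitochondria, had a log2 fold change of -1.79 ± 0.41 (edgeR adjusted p = 0.0343), and Yme1l1, an inner membrane protease, one of -2.43 ± 0.55 (edgeR adjusted p = 0.0330). The 12 mitochondrial genes of the list had a median of -0.40, against 0.27 for all genes, and 2 of them were above 0. From a list of 4 genes, the heat shock factors and their inhibitor, 3 were tested and none was called. Their median was -1.15, and 1 of them was above 0.

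At 4 weeks 2 of 58 were higher and 0 lower, or 3.45% against 4.26% of all genes. Hspa4, a relative of Hsph1, was higher by 0.84 ± 0.21 (edgeR adjusted p = 0.0395), and Cct6a, a subunit of the cytosolic chaperonin TRiC, by 1.22 ± 0.31 (edgeR adjusted p = 0.0395). All 8 TRiC genes were above 0, with a median of 0.60 where that of all genes was -0.01. In the interaction of diet and time Cct6a (-1.23 ± 0.35, edgeR adjusted p = 0.0484) and Hspb6 (-2.27 ± 0.63, edgeR adjusted p = 0.0416) were the only 2 called, or 3.45% against 3.66% of all genes. In 16-week HFD against CD edgeR called 0 of 58, and 27.6% had an unadjusted p under 0.05, where 25.3% of all genes did. In the low weight gainers against CD it called 0 of 58, and 3.45% had an unadjusted p under 0.05, where 11.2% of all genes did.

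Against 16-week HFD, the low weight gainers had 12 of 57 pathway genes higher and 4 lower, or 28.1% against 20.7% of all genes. Of 12 HSP90 co-chaperones 4 were higher and 0 lower. Fkbp4 and Fkbp5, which hold steroid receptors with HSP90, were higher by 1.00 ± 0.24 (edgeR adjusted p = 0.0101) and 0.67 ± 0.23 (edgeR adjusted p = 0.0457). Unc45a, a myosin chaperone, was higher by 0.97 ± 0.27 (edgeR adjusted p = 0.0189), and Ahsa1, the activator of the HSP90 ATPase, by 0.88 ± 0.24 (edgeR adjusted p = 0.0181). Hsf1, which makes the factor itself, was higher by 1.08 ± 0.35 (edgeR adjusted p = 0.0368), with means of 8.91 CPM in 16-week HFD and 19.7 CPM in the low weight gainers.

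Among HSP70 relatives and partners in that comparison 4 were higher and 3 lower. Hspa2 was lower by a log2 fold change of -1.58 ± 0.52 (edgeR adjusted p = 0.0474), Hspa4l by -1.07 ± 0.24 (edgeR adjusted p = 0.00612) and Hspa13 by -1.04 ± 0.22 (edgeR adjusted p = 0.00483), and Hspbp1 was higher by 1.18 ± 0.26 (edgeR adjusted p = 0.00623). The other 3, all higher, lay between 0.75 and 0.83. The mitochondrial proteases Spg7, Afg3l2 and Lonp1 were higher by 0.70 to 0.95, and the TRiC subunit Cct2 was lower (-0.68 ± 0.21, edgeR adjusted p = 0.0320).

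Markers of other cells were also read beside this comparison. The summed level of the 8 macrophage and neutrophil markers was 284 to 362 CPM in the low weight gainers and 116 to 645 CPM in 16-week HFD, and S100a8, a neutrophil gene, was called higher (4.72 ± 1.12, edgeR adjusted p = 0.0185). The 11 cumulus and granulosa markers summed to 1703 to 1844 CPM and 1449 to 4006 CPM, and Inhba (-1.07 ± 0.27, edgeR adjusted p = 0.0110) and Ptgs2 (-0.89 ± 0.29, edgeR adjusted p = 0.0388) were lower. The oocyte markers were near 0 in both groups, at most 2.45 CPM in sum. The part of these in the lower Hsp90aa1, Hsp90ab1 and Hspe1 was not tested.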

How the data were processed

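Libraries were made by an oligo-dT Smart-seq2 protocol without molecular identifiers, and the authors deposited 1 table of whole-number read counts per gene and library, without normalization. The submitters' processing notes name Trim Galore 0.4.2, HISAT2 2.0.5 and the GRCm38 genome, and the counting program, its annotation, and its use of strand and of reads that fit several genes are not given in the sources used here. Each library's group and number come from its label. That each is a separate animal is read from the study's methods, and p-values measure only the spread between these libraries.

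The test was edgeR 4.0.16 run in R 4.3.3 (TMM factors, filterByExpr, robust quasi-likelihood F-test, two-sided), each comparison on its own groups and over all genes, with Benjamini-Hochberg adjusted p called at 0.05. Members below the filter were compared by an exact two-sided permutation test of the mean log2(CPM + 1). Alternatives were RLE or total count scaling, DESeq2 1.42.0, voom of limma 3.58.1, other filters, all 34 libraries in 1 fit, Hspa1a and Hspa1b added, and leaving out each library. The fits were run on simulated data with changes larger than those of most members and without outlying libraries. That run cannot show how well smaller changes are found. No pair among the 72 within groups was identical, with a chi-square over its degrees of freedom of at least 3.26. Promoters came from RefSeq (GRCm38.p6) and transcripts from GENCODE M21.

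The 10 members and all gene lists were chosen with earlier results of these data known. All members are named. Values further than 1 SE from 0 are given singly, a choice made after the values were seen, and of each other list up to 4 called genes are named by size. Of the markers, 3 are found under older symbols in the table. No entry had a symbol built on a member's. The limit of 3 reads for a count of 0 covers counting error only, and the interval of a fold change is a normal 95% interval from its SE.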

Additional observations from a re-analysis of the deposited data

Results flagged for a closer look

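Dixon's ratio at its 95% critical value was examined in 49 combinations of a member and a group of 4 to 10 libraries, on log2(CPM + 1), and picks about 1 in 20 by chance. It picked 3 libraries. Hspb1 was at 41.0 CPM in 16 L replicate 18, against 3.73 to 7.62 CPM in the other leptin libraries, and this library also held 36729 CPM of oviduct markers. Hspb1 was at 0.599 CPM in 4-week CD replicate 2, a single read, against 3.399 to 4.499 CPM in the others of its group. Hspa1b was at 0.270 CPM in 16-week HFD replicate 15, also a single read, against 0 in the other 6. The part of depth or of other cells in these values was not tested.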

How the results depend on the processing

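In 16 L against 16 C, where the edgeR call count was 0 of the members, 4 were called with scaling by total counts, 2 with DESeq2, 4 with limma-voom and 2 in the fit of all 34 libraries, and 0 to 1 when each library was left out. The first 4 of these settings called 34.4%, 23.7%, 64.4% and 33.1% of all genes, against 8.56%. With a library left out the share was 0.235 to 41.8%. In 4-week HFD DESeq2 called 1 and limma-voom 2, and leaving out a library gave 0 to 1, the 1 being Hspd1 without CD replicate 11. In 16-week HFD leaving out a library gave 0 to 1, the 1 being Hsp90aa1 without CD replicate 9. In the low weight gainers against 16-week HFD, the 3 calls became 1 with total counts and 0 in the fit of all 34 libraries. These settings called 19.4% and 3.68% of all genes, against 20.7%. When each library was left out there were 1 to 3 calls, with 5.19 to 24.5% of all genes called. Without low weight gainer replicate 22 or 23 there was 1, with 12.6% and 5.19% of all genes called. RLE scaling and the other filters also lost the call of Hsp90ab1. In the interaction limma-voom called 2, and leaving out a library gave 0 to 1, the 1 being without 16-week CD replicate 9. Signs turned for Hspd1 in 16 L (0.37) and Hsp90ab1 in 16-week HFD (-0.0035), both with total counts, and in 4-week HFD when a library was left out, from -1.11 to 0.055 for Hsp90aa1 (the last without CD replicate 2) and from -0.33 to 0.0032 for Hspa1a (the last without CD replicate 1). The cause was not tested.

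Scaling by total counts moved the median of all genes' log2 fold changes from 0.27 to 1.08 in 16 L, from -0.05 to -0.40 in 16-week HFD, from -0.03 to 0.14 in the low weight gainers against HFD, from -0.08 to -0.28 against CD, from -0.01 to -0.13 in 4-week HFD and from -0.09 to -0.39 in the interaction. Relative to that median Hspd1 in 16 L was at -0.71 and Hsp90ab1 in 16-week HFD at 0.40. Among all genes called, the higher ones were 476 of 1004 in 16 L, but 3652 against 383 lower ones with total counts. The higher and lower calls went from 140 and 359 to 91 and 571 in 4-week HFD, from 1 and 2 to 55 and 1591 in 16-week HFD, from 1212 and 1118 to 1585 and 598 in the low weight gainers against HFD, and from 213 and 235 to 187 and 686 in the interaction.

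Outlying libraries were 3 with either scaling, 2 of them shared. No paired analysis was possible because the groups compared share fewer than 2 replicate numbers that tie animals, and no label pairs them. Depth limits Hspa1a, Hspa1b and Hspb1, which had 134, 134 and 695 reads in all libraries.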
